A study of Sus scrofa with 6 samples.

Results

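The SLC25 family is the set of carrier proteins that move metabolites across the inner membrane of mitochondria, and 32 of the 25322 genes in the deposited table belong to it by their symbol, SLC25A followed by a number. They were measured by RNA sequencing in the longissimus dorsi, a long back muscle, of 6 healthy female Tibetan pigs. The high altitude group held 3 animals ranging freely, pigs of the Tibetan highland, where the altitude averages 4000 m. The low altitude group, 3 animals of the same breed, lived near Chengdu at 500 m on average, kept under experimental conditions and fed daily, descended from pigs raised in the lowland over several generations. Altitude, feeding, place and line therefore differed together and cannot be told apart, and no ages are stated in the labels. The question was which carriers, and which transport classes, differ between muscle of the highland and of the lowland pigs.

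The inner membrane of mitochondria is closed to most charged molecules, and SLC25 carriers give each substrate its own route. ADP/ATP carriers and the phosphate carrier supply the ATP synthase and release its product, aspartate/glutamate and citrate carriers link the matrix to reducing equivalents and lipid precursors in the cytosol, and others bring in acylcarnitines, amino acids, glutathione and cofactors. In skeletal muscle the family is best known for the ADP/ATP carrier SLC25A4, loss of which causes myopathy.

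Values are FPKM, read fragments scaled by gene length and by the mapped total of the library, so that levels of different genes can be set side by side. The FPKM totals ran from 526368 to 571855 at high and from 506611 to 566907 at low altitude. Absolute depth is unknown, and relative depths read from the lowest values lay between 0.858 and 1.22. Of 10 skeletal muscle markers 3 could be matched to a row, and all 3 were abundant, with MYL11, a fast myosin light chain, at an FPKM of 14390 to 17808 in the 6 libraries. An exact 0 can be a failed estimate in this table, since 107 genes were listed at 0 in a library and at 5 or more in another, but no SLC25 gene was among them. Across all genes, limma with Benjamini-Hochberg adjustment called 23 of 10005 at an adjusted p under 0.05, 0.23%, with 16 higher and 7 lower at low altitude. That count was 11 without high altitude library 2, 4 without library 3 of that group, and 6 and 4 without low altitude libraries 1 and 3. High altitude library 1 stood apart in its summed slow fibre genes. The summed FPKM of 5 slow fibre genes was 11450 in that library, 2760 and 7159 in high altitude libraries 2 and 3, and 3187, 4782 and 3175 at low altitude. In whole muscle, fewer fibres or cells of a type and less RNA per cell cannot be told apart.

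SLC25A4, which exchanges ADP for ATP, and SLC25A3, which imports phosphate, dominated the family in every library. Together they made up 89.9, 83.9 and 84.2% of the summed FPKM of the 32 genes in libraries 1, 2 and 3 from high altitude, and 82.4, 85.6 and 83.5% in those from low altitude. The summed FPKM of the family was 1695, 1172 and 1373 at high and 1078, 1558 and 1113 at low altitude. The groups overlapped, and high altitude library 1 had the highest total, followed by low altitude library 2. Without SLC25A4 and SLC25A3 the sum was 172, 188 and 216 at high and 190, 225 and 184 at low altitude, and high altitude library 1 was then the lowest of the 6. The plot of summed FPKM sets these totals beside the slow fibre genes, whose part in them was not tested.

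**Figure D1:**
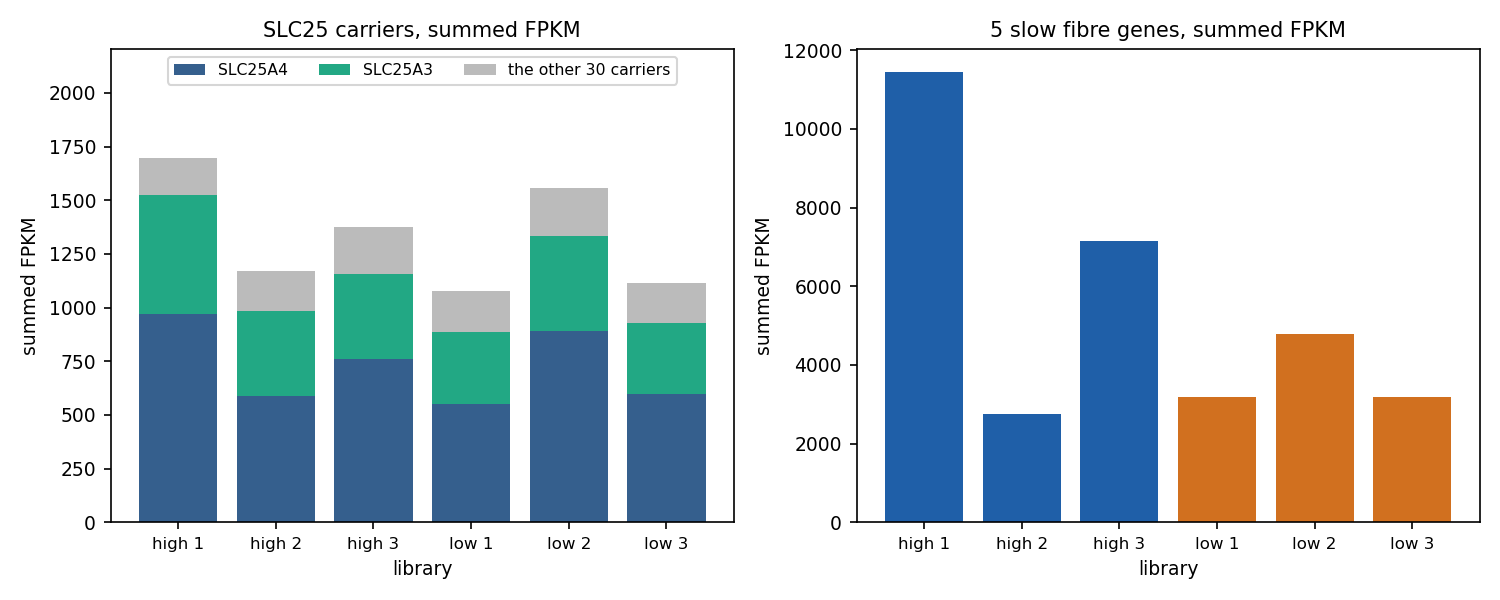
Left, summed FPKM of the 32 SLC25 carriers in each of the 6 libraries, divided into SLC25A4, SLC25A3 and the other 30 carriers. Right, summed FPKM of 5 slow fibre genes in the same libraries, which was 11450 in high altitude library 1 and 2760 to 7159 in the others.

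Below that pair the levels were far lower. SLC25A12, the aspartate/glutamate carrier of muscle and brain, and SLC25A25, a calcium-regulated carrier that exchanges ATP-Mg for phosphate, had mean FPKM of 52.0 and 32.4. SLC25A39, SLC25A20 and SLC25A46 lay between 10.8 and 16.0. A further 17 carriers had a mean FPKM from 1 to under 10, and 8 had a mean under 1. Of the 32 genes, 24 reached an FPKM of 1 in at least 3 libraries and were tested. The other 8 were SLC25A15, SLC25A14, SLC25A35, SLC25A23, SLC25A47, SLC25A53, SLC25A48 and SLC25A31. SLC25A31, the ADP/ATP carrier of the testis, was listed at 0 in all 6 libraries. The plot of levels shows the spread of the family with 8 genes below a mean FPKM of 1 and SLC25A4 at a mean of 726.

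**Figure D2:**
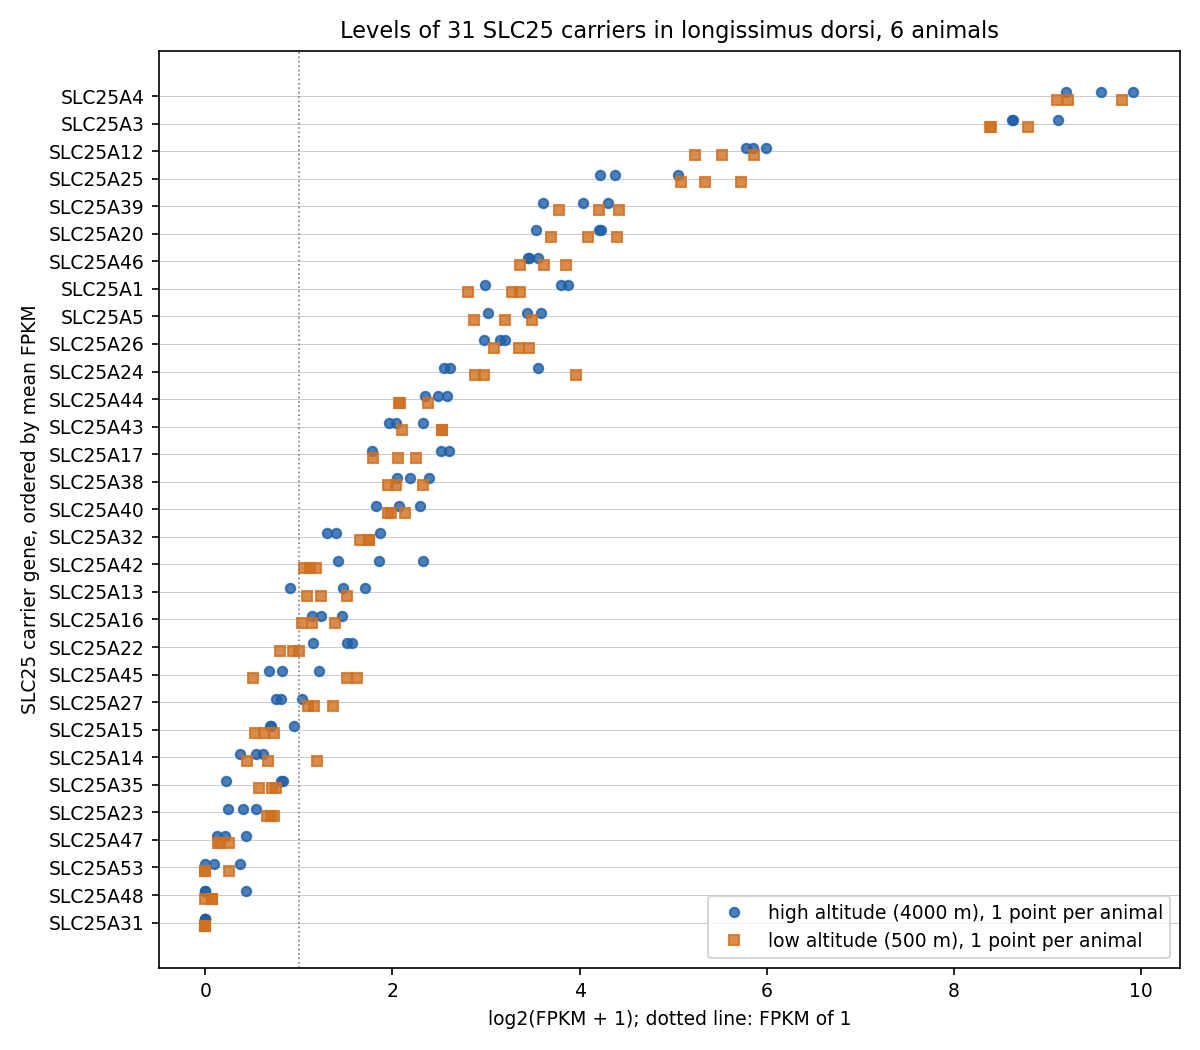
Level of 31 of the 32 SLC25 carriers as log2(FPKM + 1), 1 point per animal, circles for high and squares for low altitude, genes ordered by mean FPKM. SLC25A4 and SLC25A3 stand far to the right of the other carriers, and points of both groups are mixed for most genes.

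None of the 24 tested carriers passed the test over all genes, and the family was divided in direction. In limma with Benjamini-Hochberg adjustment 0 of 24 passed, with adjusted p from 0.374 to 0.980, where 0.23% of all tested genes passed. In the same fit 4 carriers had an unadjusted p under 0.05, 16.7%, where 9.42% of all tested genes did. SLC25A22, 1 of these 4, was tested only through the high altitude group, where it was high, so it adds no support to that share. The log2 fold change, low minus high altitude computed from log2(FPKM + 1), a scale that shrinks differences of weakly expressed genes, was below 0 in 13 carriers and above 0 in 11. Of all tested genes 42.3% were below 0. The median was −0.06 over the carriers and 0.04 over all tested genes. Under 3 rescalings of the libraries, the carriers' median was −0.01 with a common FPKM total, −0.09 with median-of-ratios scaling and −0.10 with quantile normalization, each about 0.10 below that of all genes. When 1 library was left out the carriers' median ran from −0.09 without low altitude library 2 to 0.03 when high altitude library 3 was the one left out. It was 0.01 without low altitude library 1. The median of all tested genes in these fits was 0.02, 0.10 and 0.06 in this order, above that of the carriers each time. Without high altitude library 1 the carriers' median was −0.02, level with that of all genes. Among the 11 carriers with a mean FPKM of at least 5 it was 0.07, against 0.04 over all genes at that level. The altitude groups did not overlap in 4 of the 24, SLC25A25 and SLC25A27 with low altitude higher and SLC25A42 and SLC25A22 with low altitude lower. Over all tested genes the groups did not overlap in 16.1%, with 11.3% higher and 4.8% lower at low altitude, so the carriers' share is near the background. That share also holds SLC25A22, which could enter the test only without overlap. The 95% intervals of 20 of the 24 log2 fold changes spanned 0. Leaving out 1 library moved the estimate by over 1.5 times, or across 0, in 19 of the 24 carriers, the exceptions being SLC25A22, SLC25A25, SLC25A27, SLC25A42 and SLC25A44.

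**Figure D3:**
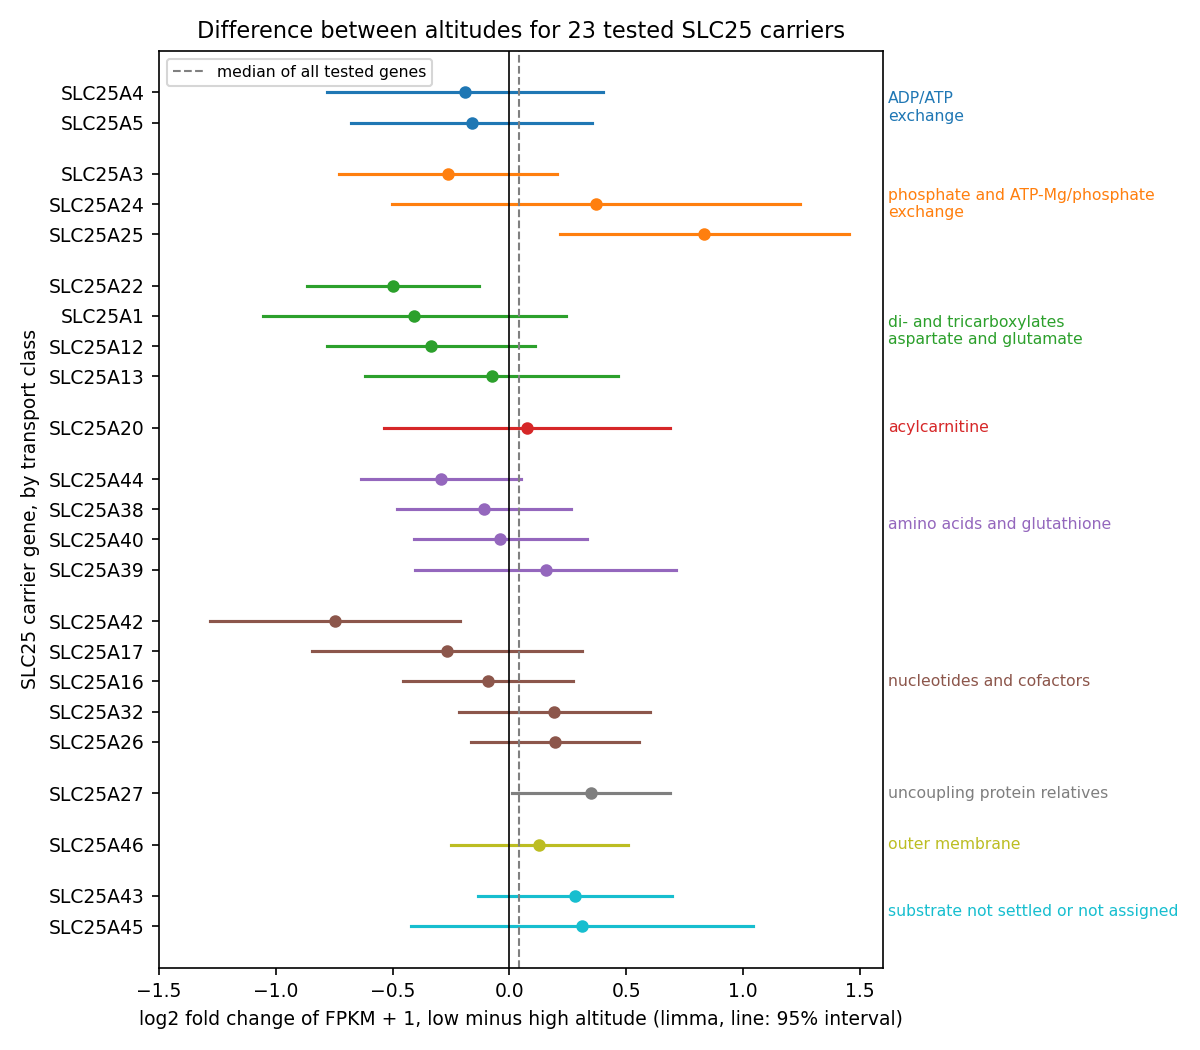
Log2 fold change of FPKM + 1, low minus high altitude, for 23 of the 24 tested SLC25 carriers, by transport class, with 95% intervals from limma. Intervals of 19 of these carriers cross 0, the estimates run from −0.75 (SLC25A42) to 0.83 (SLC25A25), and the dashed line marks the median of all tested genes, 0.04.

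Both tested ADP/ATP carriers were slightly lower on average at low altitude, by less than the spread between animals. SLC25A4, the form of muscle and heart, was at an FPKM of 969, 589.6 and 760.2 at high against 551, 889 and 596 at low altitude. It was thus highest in high altitude library 1, then in low altitude library 2, and the groups overlapped. Its means were 773 ± 190 (SD, n = 3) and 678 ± 184, and its log2 fold change was −0.19 (SE 0.25, 95% interval −0.78 to 0.40; limma, Benjamini-Hochberg adjusted p = 0.860). The log2 fold change of SLC25A4 was −0.01 without high altitude library 1, and −0.06 or −0.11 when low altitude library 1 or 3 was left out. It was −0.37 and −0.40 without library 2 of the high and of the low altitude group. SLC25A5, a form found in many growing tissues, was at 7.10, 9.86 and 10.98 at high and 6.29, 8.18 and 10.3 at low altitude (limma estimate −0.16, Benjamini-Hochberg adjusted p = 0.866). High altitude library 1, the highest for SLC25A4, was the lowest of its group for SLC25A5. The carriers are close in sequence, and no source used here says how reads matching both were assigned.

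The phosphate carrier and the ATP-Mg/phosphate exchangers lay on opposite sides of 0. SLC25A3, which brings phosphate into the matrix for ATP synthesis, was at 554, 394 and 397 FPKM at high and 338, 444 and 333 at low altitude. High altitude library 1 held the highest value and low altitude library 2 lay above the other 2 libraries of high altitude, so the groups overlapped. Its log2 fold change was −0.26 (SE 0.20, 95% interval −0.73 to 0.20; limma, Benjamini-Hochberg adjusted p = 0.715), −0.10 without high altitude library 1, and −0.40 when low altitude library 2 was left out.

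Among the tested carriers with an SLC25A symbol, SLC25A25 had the largest positive estimate. Its FPKM was 17.7, 19.9 and 32.1 at high and 39.6, 51.9 and 33.04 at low altitude. The groups did not overlap, but high altitude library 3 and low altitude library 3 were nearly level. The means were 23.2 ± 7.76 (SD, n = 3) and 41.5 ± 9.56, a ratio of 1.79. In limma the log2 fold change was 0.83 (SE 0.26, 95% interval 0.21 to 1.45; Benjamini-Hochberg adjusted p = 0.391). It ranged from 0.67 to 1.08 over the fits that left out 1 library and was above 0 in each. SLC25A24, its relative, was at 4.86, 5.12 and 10.7 at high and 14.6, 6.89 and 6.38 at low altitude. Low altitude library 1 and high altitude library 3 stood above the rest, and the log2 fold change of 0.37 (SE 0.37, limma, Benjamini-Hochberg adjusted p = 0.797) was 0.03 without low altitude library 1, 0.19 and 0.22 without high altitude libraries 1 and 2, and 0.69 and 0.57 without library 3 of the high and of the low altitude group. SLC25A23, the third exchanger of this kind, was at 0.319, 0.180 and 0.453 at high and 0.629, 0.657 and 0.580 at low altitude. Its groups did not overlap, but it lay below the level set for testing, and it is singled out after its values were seen.

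As for the 2 ADP/ATP carriers, every tested estimate among the carriers of citrate, aspartate and glutamate was below 0, 4 of 4. Of these, SLC25A22 was tested only through the high altitude group, where it was high, so its estimate could only be below 0. With it included, the class median was −0.37 against 0.04 over all tested genes. Apart from it, the estimates were −0.41 for SLC25A1, −0.34 for SLC25A12 and −0.08 for SLC25A13. The class median, again with SLC25A22, was −0.21 without low altitude library 3, and −0.49 when high altitude library 1 was left out. The estimates of SLC25A1, SLC25A12 and SLC25A13 stayed below 0 under the 3 rescalings of the libraries. SLC25A13, however, lay above 0 with array weights and when either high or low altitude library 1 was left out. SLC25A12, which exports aspartate for the malate-aspartate shuttle, was at 56.9, 62.7 and 53.9 at high and 44.9, 57.3 and 36.6 at low altitude. Low altitude library 2 lay within the range of the high altitude group, and the other 2 lay below it. The log2 fold change of SLC25A12 was −0.34 (SE 0.19, 95% interval −0.78 to 0.11; limma, Benjamini-Hochberg adjusted p = 0.632), and it was −0.18 without low altitude library 3, and −0.50 when library 2 of that group was left out. SLC25A13, the form known from liver, was far lower, at 2.26, 0.866 and 1.76 at high and 1.13, 1.86 and 1.35 at low altitude. The groups overlapped, and the log2 fold change of SLC25A13 was −0.08 (limma, Benjamini-Hochberg adjusted p = 0.947).

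SLC25A22, which imports glutamate, was at 1.21, 1.97 and 1.85 FPKM at high and 0.737, 0.995 and 0.917 at low altitude. All high altitude libraries lay above 1 and all low altitude libraries below it, so the gene was tested only through the group where it was high. Its means were 1.68 ± 0.406 (SD, n = 3) and 0.883 ± 0.132, and the log2 fold change was −0.50 (SE 0.16, limma, Benjamini-Hochberg adjusted p = 0.387). At this low level the added 1 weighs on the estimate of SLC25A22, which was −0.64 with a pseudocount of 0.5 and −0.84 with 0.1. Its adjusted p reached its lowest value of 0.159 with limma's array weights. SLC25A1, which exports citrate for fatty acid synthesis, was at 6.93, 13.7 and 12.9 at high and 9.28, 8.71 and 5.98 at low altitude. High altitude library 1 lay among the low altitude libraries, while libraries 2 and 3 of that group were the highest of the 6. The log2 fold change of SLC25A1 was −0.41 (SE 0.28, limma, Benjamini-Hochberg adjusted p = 0.694). It was −0.69 without high altitude library 1, but −0.24 without high altitude library 2, and −0.23 when low altitude library 3 was left out. ACLY, the enzyme that splits the exported citrate, named here after its values were seen, was at 1.59, 21.0 and 14.8 FPKM at high and 2.30, 3.39 and 3.65 at low altitude. The groups overlapped for ACLY, which did not pass (limma estimate −1.25, SE 0.73, Benjamini-Hochberg adjusted p = 0.650). For ACLY as for SLC25A1 high altitude library 1 was the lowest of its group, and a link between them was not tested.

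**Figure D4:**
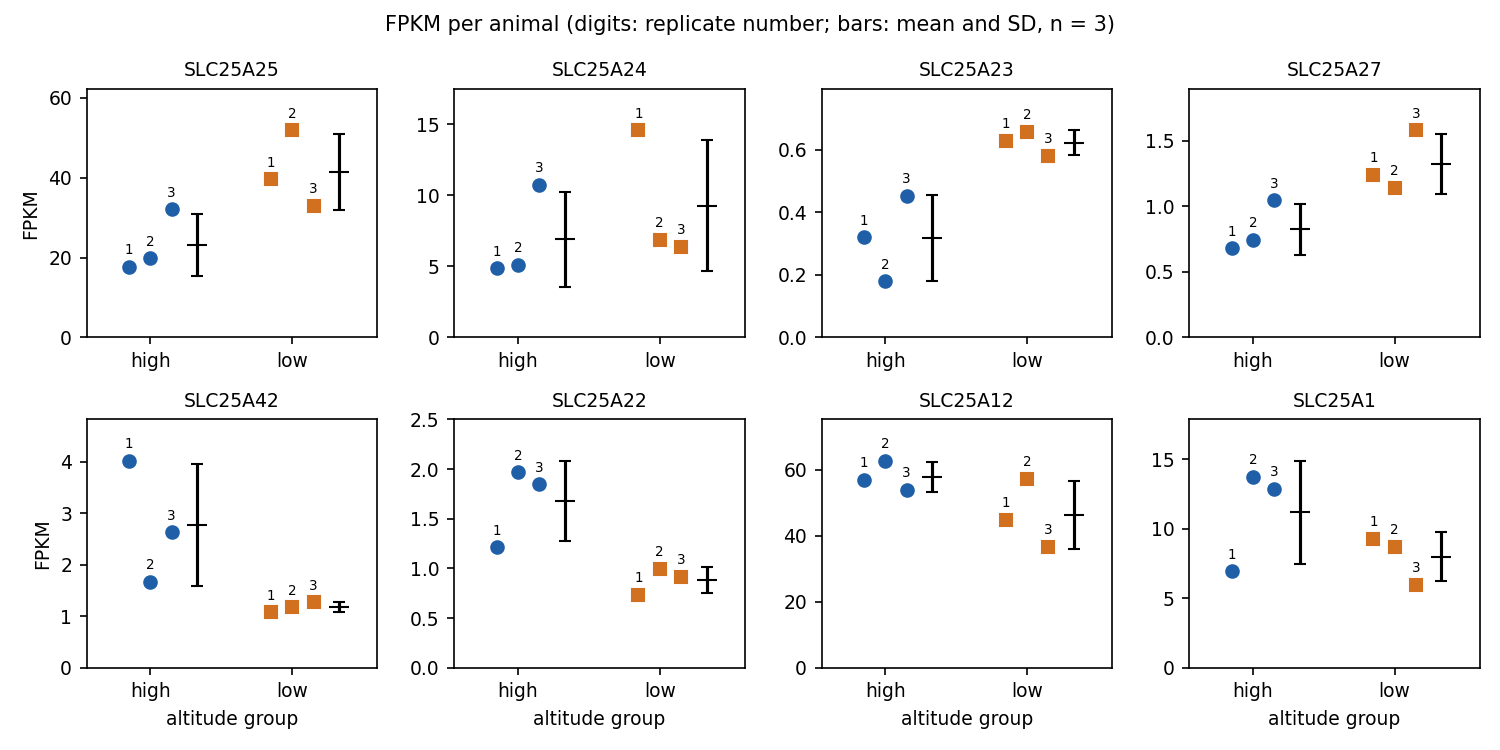
FPKM of 8 SLC25 carriers in each animal, circles for high and squares for low altitude, with the replicate number beside each point and the mean ± SD (n = 3) as a bar. Groups do not overlap for SLC25A25, SLC25A23, SLC25A27, SLC25A42 and SLC25A22, of which SLC25A23 was not tested, and overlap for SLC25A24, SLC25A12 and SLC25A1.

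SLC25A20, which exchanges acylcarnitine for carnitine and so admits long-chain fatty acids to oxidation, had overlapping groups. Its FPKM was 17.5, 10.6 and 17.8 at high and 11.96, 16.1 and 20.2 at low altitude. High altitude library 2 was the lowest and low altitude library 3 the highest. The estimate turned below 0 when either of them was left out. The log2 fold change was 0.07 (SE 0.26, 95% interval −0.54 to 0.68; limma, Benjamini-Hochberg adjusted p = 0.956). With 3 animals per group, differences within those bounds remain compatible with the values. The enzymes on either side of it, CPT1B and CPT2, had log2 fold changes of −0.02 and −0.03 (limma, Benjamini-Hochberg adjusted p = 0.985 and 0.982).

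Of the carriers of amino acids and glutathione, 4 of 5 were tested, with 3 estimates below 0, 1 above and a median of −0.07. SLC25A44, the carrier of branched-chain amino acids, was at 4.97, 4.08 and 4.60 FPKM at high and 3.24, 4.21 and 3.19 at low altitude. Low altitude library 2 lay within the high altitude range and the other 2 below it (limma estimate −0.29, SE 0.15, Benjamini-Hochberg adjusted p = 0.587). SLC25A39, which imports glutathione, was at 11.2, 15.4 and 18.7 at high and 12.8, 17.5 and 20.4 at low altitude, with overlapping groups (limma estimate 0.15, Benjamini-Hochberg adjusted p = 0.882; −0.03 without high altitude library 1, 0.33 if low altitude library 1 was left out). Its relative SLC25A40 was between 2.53 and 3.91 at high and between 2.87 and 3.39 at low altitude, inside the range of the other group. SLC25A38, which carries glycine for haem synthesis, was between 3.15 and 4.25 at high and between 2.86 and 4.01 at low altitude. SLC25A15, the ornithine carrier, was below 1 in every library, at 0.617 to 0.925 at high altitude against 0.449 to 0.667 in the lowland.

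Among the 6 carriers of nucleotides and cofactors, all tested, 3 estimates were below and 3 above 0. Their median was −0.03, and 0.02 with libraries rescaled to a common total. SLC25A42, which brings coenzyme A into the matrix, had the largest negative estimate of the family. Its FPKM was 4.02, 1.67 and 2.63 at high and 1.07, 1.18 and 1.28 at low altitude. The groups did not overlap, the high altitude values were widely spread, and the low altitude values lay close together. Its means were 2.77 ± 1.18 (SD, n = 3) and 1.17 ± 0.101, a ratio of 2.36 in favour of high altitude. In limma the log2 fold change was −0.75 (SE 0.23, 95% interval −1.28 to −0.21; Benjamini-Hochberg adjusted p = 0.374). Without high altitude library 1, which held the highest value, it was −0.52, and −0.97 without high altitude library 2, which held the lowest of its group. With all libraries, the estimate of SLC25A42 was −0.90 with a pseudocount of 0.5 and −1.09 with 0.1, so the added 1 weighs on it. SLC25A16, a relative linked to coenzyme A as well, was at 1.197 to 1.75 at high altitude against 1.04 to 1.61 in the lowland, with overlapping groups (log2 fold change −0.09).

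The groups overlapped for the 3 other cofactor carriers given here. SLC25A26, which imports S-adenosylmethionine, the methyl donor of the matrix, was at 6.85, 7.86 and 8.18 at high and 7.48, 9.24 and 10.03 at low altitude. Its groups overlapped, with 2 low altitude libraries above all of high altitude (limma estimate 0.19, SE 0.15, Benjamini-Hochberg adjusted p = 0.728). SLC25A32, which carries folate and flavin cofactors, was at 1.47, 1.64 and 2.65 at high and 2.14, 2.35 and 2.36 at low altitude. High altitude library 3 was the highest of the 6, so the groups overlapped (limma estimate 0.19, Benjamini-Hochberg adjusted p = 0.770). SLC25A17, a carrier of cofactors in the membrane of peroxisomes, was at 2.44, 5.09 and 4.72 at high and 2.47, 3.75 and 3.16 at low altitude. Here high altitude library 1 was the lowest of the 6, and libraries 2 and 3 of that group the highest (limma estimate −0.27, Benjamini-Hochberg adjusted p = 0.771). The estimate of SLC25A17 was −0.53 without high altitude library 1, −0.12 and −0.16 without libraries 2 and 3 of that group, and −0.15 without low altitude library 1.

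Relatives of the uncoupling proteins were at the low end of the family. SLC25A27, known from neurons as an uncoupling protein, was at 0.683, 0.746 and 1.05 FPKM at high and 1.24, 1.14 and 1.58 at low altitude. The groups did not overlap, and 4 of the 6 libraries were at or above 1, including all 3 of low altitude. The log2 fold change was 0.35 (SE 0.14, 95% interval 0.01 to 0.69; limma, Benjamini-Hochberg adjusted p = 0.506), and 0.63 with a pseudocount of 0.1. SLC25A14, another brain form, was below the level for testing, at 0.526, 0.455 and 0.290 at high and 0.363, 1.29 and 0.592 at low altitude, and low altitude library 2 alone was above 1. UCP3, the muscle uncoupling protein, belongs to the same protein family under its own symbol. It was at 4.18, 14.3 and 24.7 at high and 22.4, 24.4 and 70.5 at low altitude. Its groups overlapped through high altitude library 3, and UCP3 did not pass either (limma estimate 1.46, SE 0.65, Benjamini-Hochberg adjusted p = 0.545). UCP2, another uncoupling protein, was at 6.43, 5.96 and 5.68 at high and 4.67, 2.68 and 6.71 at low altitude, with overlapping groups. Its limma estimate lay on the other side of 0 (−0.37, SE 0.26, Benjamini-Hochberg adjusted p = 0.703).

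SLC25A46, a carrier homologue of the outer membrane that acts in mitochondrial shape, was at 9.89, 10.03 and 10.7 at high and 11.3, 13.5 and 9.31 at low altitude. Low altitude library 3 was the lowest and the other 2 of that group the highest (limma estimate 0.13, SE 0.16, Benjamini-Hochberg adjusted p = 0.852). Of the 6 members whose substrate is not settled or not assigned here, 2 were tested. SLC25A43 was at 3.10, 2.89 and 4.01 at high and 4.79, 4.79 and 3.29 at low altitude, and low altitude library 3 lay within the range of the other group. Its log2 fold change was 0.28 (SE 0.18, limma, Benjamini-Hochberg adjusted p = 0.671). In the RefSeq annotation of the assembly Sscrofa11.1, SLC25A43 and SLC25A5 are neighbours on chromosome X, and their estimates of 0.28 and −0.16 lay on opposite sides of 0. SLC25A45 ranged from 0.604 to 1.32 at high and from 0.423 to 2.06 at low altitude. The remaining 4 stayed below 1 in all libraries. SLC25A35 was at 0.160 to 0.781 at high altitude against 0.492 to 0.685 in the lowland, and SLC25A47 at 0.0909 to 0.346 and 0.1003 to 0.190. SLC25A53 was listed at 0 in 3 libraries and at up to 0.289 in the others, and SLC25A48 was listed at 0 in 3 libraries and at up to 0.348 in the others.

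Ratios between carriers of 1 substrate, taken of FPKM + 1 within a library, overlapped between the groups for all 4 pairs that could be formed. The added 1 lowers the ratio where a member is near an FPKM of 1, as SLC25A13 is. The log2 ratio of SLC25A4 to SLC25A5 was 6.22 ± 0.60 (SD, n = 3) at high and 6.19 ± 0.44 at low altitude. High altitude library 1 had the highest ratio at 6.90 and low altitude library 3 the lowest at 5.73. The ratio of SLC25A12 to SLC25A13 was 4.52 ± 0.50 and 4.26 ± 0.23, and that of SLC25A39 to SLC25A40 was 1.92 ± 0.12 and 2.11 ± 0.27. SLC25A24 stood below SLC25A25 in every library, by −1.65 ± 0.14 at high and −2.11 ± 0.69 at low altitude, where low altitude library 1 was at −1.38 and library 2 at −2.74. By a two-sided exact permutation test over the 20 assignments of libraries the p was 0.9, 0.6, 0.3 and 0.4 in this order (adjusted over the 4 ratios 0.9, 0.8, 0.8 and 0.8), where 0.1 is the smallest p the design allows.

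The genes that work beside the carriers gave 0 calls in limma in either direction, where only 0.23% of all tested genes were called. Of 10 tested genes for import of carrier proteins, such as the receptor TOMM70 and the insertion pore TIMM22, 7 were below 0, with a median of −0.05. TIMM22 was at 5.35, 4.92 and 7.62 FPKM at high and 4.504, 6.62 and 3.30 at low altitude, and TOMM22, a receptor subunit, at 44.8, 44.8 and 48.4 and at 53.0, 53.8 and 48.7, without overlap. AGK, a partner of TIMM22, was at 2.41 to 2.80 and 1.69 to 2.54. The limma estimates of TOMM22, AGK and TIMM22 were 0.17, −0.18 and −0.28 (Benjamini-Hochberg adjusted p = 0.722, 0.752 and 0.760). A further 17 tested transporters of the mitochondrial membranes, UCP2 and UCP3 included, have no SLC25A symbol. Of these, 9 were above and 8 below 0, with a median of 0.01. MPC2, a subunit of the pyruvate carrier, was at 54.4, 44.1 and 49.5 at high and 33.1, 42.9 and 36.7 at low altitude. The groups did not overlap for MPC2 (limma estimate −0.39, Benjamini-Hochberg adjusted p = 0.506). VDAC3, a pore of the outer membrane, was at 7.62 to 13.8 and 13.0 to 16.5 (log2 fold change 0.45, adjusted p = 0.577 by the same limma test).

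Of 14 tested enzymes listed beside the carriers, 11 were below 0, with a median of −0.31 against 0.04 over all tested genes. GOT1, the cytosolic aminotransferase of the malate-aspartate shuttle, was at 102, 61.0 and 64.8 at high and 38.8, 68.7 and 33.2 at low altitude. As for SLC25A12, low altitude library 2 lay within the range of the high altitude group and the other 2 lay below it. CKMT2, the mitochondrial creatine kinase that takes ATP delivered by SLC25A4, was at 623, 636 and 470.1 at high and 334, 600.4 and 343 at low altitude, with low altitude library 2 again beside the high altitude group. GPD2, the mitochondrial enzyme of the glycerol phosphate shuttle, was at 9.86, 17.0 and 17.8 at high and 35.4, 18.6 and 24.01 at low altitude, and its groups did not overlap. The limma estimates of GPD2, GOT1 and CKMT2 were 0.76, −0.72 and −0.48 (Benjamini-Hochberg adjusted p = 0.488, 0.539 and 0.616).

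Fibre type genes are given here because high altitude library 1 was the highest both for SLC25A4 and for the summed slow fibre genes. It was the highest for 4 of the 5, while MYL3 was highest in high altitude library 3. All 5 tested slow fibre genes were below 0, with a median of −0.74. MYL3, TNNI1 and TNNC1, contractile proteins of slow fibres, had log2 fold changes of −0.93, −0.74 and −0.72 (limma, Benjamini-Hochberg adjusted p = 0.415, 0.667 and 0.715). Of 6 tested fast fibre genes 3 were above and 3 below 0, among them MYBPC2 (0.42), TNNC2 (0.13) and MYL1 (−0.12), with adjusted p of 0.431, 0.801 and 0.779 in limma. Summed markers of other cells overlapped between the groups, but not every single marker did. The endothelial gene KDR and the lymphocyte gene CD3D were lower at low altitude without overlap, and TAGLN of smooth muscle was higher without overlap. Their limma estimates were −1.09, −0.66 and 0.26 (Benjamini-Hochberg adjusted p = 0.303, 0.238 and 0.599). The groups overlapped for the other markers, and did not in 16.1% of all tested genes. The summed FPKM of 4 adipocyte markers was 18.1, 26.5 and 41.7 at high and 21.1, 28.4 and 37.9 at low altitude, while that of 6 fibroblast and matrix genes was 253, 974 and 864 and 994, 1087 and 701, lowest in high altitude library 1. For 4 erythroid markers, led by HBB, it ran from 57.2 to 166 at high and from 58.8 to 118 at low altitude. Of these 4, SLC4A1 had the lowest mean and was at most at 0.0265, while HBB was at 56.4 to 160. The sums were 39.8 to 66.5 at high against 52.4 to 69.8 in the lowland for 5 endothelial genes, and 81.1 to 118 against 109 to 112 for 5 smooth muscle and pericyte genes. They were 35.8 to 52.1 against 28.5 to 71.5 for 4 macrophage genes, and 7.38 to 8.48 against 4.11 to 9.51 for 5 lymphocyte genes. None of the markers that could be tested passed in limma, where 0.23% of all tested genes did. No marker of these lists with a row was listed at 0 in all 6 libraries, and the part of such cells in the carriers' values was not tested.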

How the data were processed

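RNA was measured in 3 high and 3 low altitude animals, 1 library each, from strand-specific libraries per the labels' protocols. The authors deposited FPKM values as 1 table, with columns matched to animals by their titles. TopHat2 2.0.11 and Cufflinks 2.2.1 are named in the submitters' processing notes, with no role given. No source used here gives the genome build, annotation release or filters, and coordinates and sequences are therefore left out.

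Symbols came from a table of Ensembl pig gene IDs, which named 11804 of the 25322 IDs. A further 10 SLC25A symbols in it have IDs with no row under that ID (such as SLC25A6, SLC25A10, SLC25A11 and SLC25A28) and were not analysed here, so the iron carriers have no value. Values were analysed as log2(FPKM + 1). Genes at an FPKM of 1 or more in at least 3 of 6 libraries were tested together with limma 3.58.1 (trend) in R 4.3.3, two-sided and adjusted by Benjamini-Hochberg over the 10005 genes, at a threshold of 0.05. Steps were tested on simulated data. For limma, changes were planted only in well expressed genes and were larger than the carrier estimates plotted here. That check therefore does not cover weakly expressed carriers or differences of their size. FPKM holds no counts, so no counting interval is given. Relative depth was read from ratios of values under 0.15 between libraries.

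Members, transport classes and lists were chosen with earlier results of these data known, so lists are described by counts and medians without a test. Values of 1 member are not reported here, though it stays in the counts, sums and medians. Full values go to the 12 with the smallest unadjusted p, the 6 most abundant, and the most abundant and smallest p of each class, with up to 3 genes of each other list. ACLY and UCP2 were added after their values were seen. MYLPF was matched as MYL11. Other settings tried were smaller pseudocounts (0.1, 0.5), no filter or a mean FPKM of at least 5, 3 rescalings, limma fits without trend, robust, array-weighted or blocked by replicate number, and each library left out in turn, with the tested genes kept. Plots used matplotlib 3.10.9 (Python 3.11.15).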

Additional observations from a re-analysis of the deposited data

How the results depend on the processing

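No SLC25 carrier passed the threshold under any of the 17 alternatives, the lowest Benjamini-Hochberg adjusted p from limma being 0.159 (SLC25A22, array weights). The sign of the estimate held in all alternatives for 19 of the 24 tested carriers and turned at least once for the other 5, among them SLC25A13, SLC25A20, SLC25A39 and SLC25A40. When 1 library was left out, SLC25A20 ran from −0.16 (high altitude library 2 left out) to 0.26, with −0.096 when low altitude library 3 was left out, and SLC25A39 from −0.031 (high altitude library 1 left out) to 0.33. The log2 ratio of SLC25A4 to SLC25A5, −0.03 low minus high, was 0.088 with quantile normalization and between −0.26 and 0.31 when 1 library was left out, above 0 without high altitude library 1 or low altitude library 3, and that of SLC25A12 to SLC25A13, −0.26, ran from −0.44 to 0.028, above 0 without high altitude library 2. The causes were not tested. With a mean FPKM of at least 5, where 11 carriers remain, 5 were below 0, and the medians were 0.15 for amino acids and glutathione and 0.19 for nucleotides and cofactors, from fewer genes. The median of the uncoupling relatives, 1 gene, was 0.63 with a pseudocount of 0.1, and that of carriers with no settled substrate −0.0049 with no filter, which adds genes. Over all genes the 23 calls became 6 with no filter, 9 by median-of-ratios and 10 by quantile normalization, 38 with array weights, and 4 to 21 when 1 library was left out. A common FPKM total gave 26 higher and 6 lower calls. The replicate numbers in the titles pair no animals by any label, and deviations of same-numbered libraries correlated at −0.14 to 0.09. With the replicate number as a replicate block, 19 genes and 0 carriers passed, and the carriers' median was −0.06, as without the block. Depth is known only in relative terms, and carriers near an FPKM of 1 are the least precise.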
